A study of Homo sapiens with 10 samples.

Results

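The miR-15/16 and miR-29 families were followed through 5 small RNA libraries from BEAS-2B cells, using every row of the deposited miRNA tables whose name is miR-15a, miR-15b, miR-16, miR-195, miR-497, miR-29a, miR-29b (also 29b-1 and 29b-2) or miR-29c, with or without an arm. The rule took 9 of 612 rows, 5 of the miR-15/16 family and 4 of the miR-29 family, and used no measured value. BEAS-2B is a bronchial epithelial line that was immortalised in culture. Per the labels, the cells grew in LHC9 medium with FBS, carried either the empty pCMV6 vector or the same vector with TAF1C, and were all kept under G418. TAF1C is part of the selectivity factor that brings RNA polymerase I to ribosomal RNA genes. The small RNA groups held 2 empty vector and 3 TAF1C libraries, and the same RNA isolates also gave 2 and 3 long RNA libraries. Nothing in the labels tells whether the libraries of a group came from separate cultures or clones, and p-values measure only how much these libraries vary, which may be technical.

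Members of the miR-15/16 family share 1 seed, the bases that pair with a target, and are known for restraining BCL2 and the cyclins that start the cell cycle. They are cut from the 5p side of paired hairpins, and MIR15A with MIR16-1 lies in a region of chromosome 13 that is often deleted in chronic lymphocytic leukaemia. The miR-29 family is known for holding down collagens and other matrix proteins and the DNA methyltransferases DNMT3A and DNMT3B, work ascribed to the 3p arm. MYC is known to repress hairpin clusters of both families in several cell types.

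The mature sequences are shown because the seed is what groups the rows. They were taken from RefSeq (GRCh38.p14) by name, all 9 rows matched, and capitals mark the seed, bases 2 to 8 from the 5′ end. The 5 rows of the miR-15/16 family have the same seed, AGCAGCA.
hsa-miR-16-5p: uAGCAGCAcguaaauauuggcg
hsa-miR-15b-5p: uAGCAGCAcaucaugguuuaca
hsa-miR-15a-5p: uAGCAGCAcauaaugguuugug
hsa-miR-195-5p: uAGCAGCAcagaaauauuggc
hsa-miR-497-5p: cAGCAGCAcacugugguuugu
The 4 rows of the miR-29 family all carry 5p names, and their 5p arms have 4 different seeds.
hsa-miR-29a-5p: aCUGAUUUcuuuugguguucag
hsa-miR-29b-1-5p: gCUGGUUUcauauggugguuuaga
hsa-miR-29b-2-5p: cUGGUUUCacaugguggcuuag
hsa-miR-29c-5p: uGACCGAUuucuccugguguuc
The 3p arms, with the seed AGCACCA that gives the family its known targets, have no row of their own in the tables used here.
hsa-miR-29a-3p: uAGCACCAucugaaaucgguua
hsa-miR-29b-3p: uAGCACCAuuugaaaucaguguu
hsa-miR-29c-3p: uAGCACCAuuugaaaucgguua

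The hairpins lie in 5 pairs in GRCh38.p14. MIR15A and MIR16-1 span chr13:50048973-50049201 on the minus strand, inside the noncoding gene DLEU2. MIR15B and MIR16-2 span chr3:160404588-160404825 on the plus strand, inside SMC4. MIR195 and MIR497 span chr17:7017615-7018022 on the minus strand, inside MIR497HG. For the other family, MIR29A and MIR29B1 span chr7:130876747-130877539 on the minus strand, and the annotated end of LINC-PINT lies 22 bases from MIR29B1. MIR29B2 and MIR29C span chr1:207801852-207802523 on the minus strand, inside MIR29B2CHG, which the long RNA tables list as C1orf132. The annotation used here gives gene bounds but not exons, so exonic or intronic position is not stated. The mature miR-16-5p is the same from MIR16-1 and MIR16-2, and the single row cannot separate them.

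The arm that a row holds was not checked. Of the 612 rows, 451 are named 5p and 19 are named 3p, and just 5 hairpins have both arms listed. The tables hold 7 pairs of rows whose hairpins differ in the 5p arm and have the same 3p arm. In 4 of them, with 5p arms identical at 16 to 22 positions from the 5′ end, the signals stayed near each other: miR-103a-1-5p was 0.997 to 0.998 times miR-103a-2-5p, miR-19b-1-5p was 0.991 to 0.999 times miR-19b-2-5p, miR-92a-1-5p was 1.04 to 1.06 times miR-92a-2-5p, and miR-365a-5p was 1.06 to 1.11 times miR-365b-5p. The miR-24 pair was at 0.986 to 0.987 in the TAF1C-labelled libraries, with miR-24-2-5p listed at 0 in both controls. The pair miR-509-5p and miR-509-3-5p, with a signal of at most 35.4, ran from 0.437 to 2.29. MIR29B1 and MIR29B2 are the last such pair, with a ratio of 1.10 to 1.37. Counted from the 5′ end without gaps, their 5p arms were identical at 7 positions. The miR-29b-1-5p arm begins with an extra g, which shifts the bases, so that count understates how alike the arms are. The hairpins of this pair are shown with both mature arms in capitals.
MIR29B1: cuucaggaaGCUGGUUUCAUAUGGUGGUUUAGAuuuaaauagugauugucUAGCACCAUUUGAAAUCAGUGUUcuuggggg
MIR29B2: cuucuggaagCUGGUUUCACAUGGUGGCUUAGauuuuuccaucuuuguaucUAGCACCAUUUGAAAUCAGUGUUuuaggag
Whether a row holds reads of 1 arm or of the whole hairpin was not tested, and the rows are called by the names they have in the tables.

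The small RNA libraries held an estimated 22294686 and 27538545 miRNA reads with the empty vector against 22217596, 19904339 and 16077733 in the TAF1C-labelled libraries, taking 1 step of the signal as 1 read. The smallest value above 0 was 3 or 4 steps, so that reading is an assumption. The TAF1C transcript did not differ as the labels would have it, at 63.9 and 77.1 CPM (counts scaled to library size by TMM) with the empty vector against 63.5, 58.5 and 66.5 CPM in the TAF1C libraries (log2 fold change -0.17 ± 0.13 SE, edgeR adjusted p = 0.353). Library labels are therefore used throughout as names. Markers of other cells moved with the groups: 24 photoreceptor genes summed to 2585 and 1942 CPM with the empty vector and to 20.3 to 27.8 CPM in the TAF1C-labelled libraries, with 24 and 19 of the 24 at or above 1 CPM against 11, 7 and 9, and none at 0 in all 3. The 2 controls differed within that list: IMPG2 (862 and 674 CPM), OTX2 (300.2 and 422 CPM), CRX (209.9 and 359 CPM) and AIPL1 (212 and 347 CPM) were high in both, while RCVRN (253 and 1.06 CPM), ABCA4 (162 and 4.69 CPM) and PRPH2 (103 and 3.95 CPM) were high in replicate 1. A list of 17 neuronal genes summed to 791 and 721 CPM against 13.8 to 14.4 CPM, and 13 bronchial epithelial genes, KRT7 the highest, to 404 and 391 CPM against 1384 to 1499 CPM. KRT7 and KRT8 made up most of that sum, and within the list EPCAM (14.6 and 1.09 CPM against 0.0566 to 0.429 CPM) and ITGB4 (22.9 and 17.2 CPM against 8.72 to 9.29 CPM) lay lower with TAF1C. KRT5, KRT14 and TP63 were at or below 1.88 CPM in every library. Haematopoietic genes (7) summed to 31.5 to 52.9 CPM and fibroblast genes (7) to 31.4 to 94.3 CPM over the 5 libraries. Among 11 rows of neural and retinal miRNAs, miR-9-5p had a signal of 14872 and 16092 with the empty vector against 342, 454 and 357 with TAF1C, and miR-7-5p 102242 and 106659 against 216258, 250449 and 238097. Of the 11 rows, 4 were higher in both controls than in any TAF1C library and 5 went the other way. Over all miRNAs tested the groups did not overlap for 63.3%. Together the 11 rows held 1.07% of the signal in each control and 1.34% to 1.57% with TAF1C. What part these cell type differences have in the results below was not tested. Fewer cells of a type and less RNA per cell cannot be told apart in these bulk samples.

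Of the 9 rows, 3 were higher in the TAF1C-labelled libraries (miR-29a-5p, miR-29b-1-5p and miR-29b-2-5p), 2 were lower (miR-15b-5p and miR-29c-5p), and 4 did not pass the test. The test was limma on log2(signal + 1) with Benjamini-Hochberg adjustment over the 338 miRNAs that passed the filter, all 9 rows among them. Over those 338, 40.2% were called, 21.0% higher and 19.2% lower, so 5 of 9 rows stand against a background in which calls were common. Groups did not overlap for 8 of the 9 rows, against 63.3% of all miRNAs tested. The fold changes understate the change of low rows slightly, because of the added 1.

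**Figure D1:**
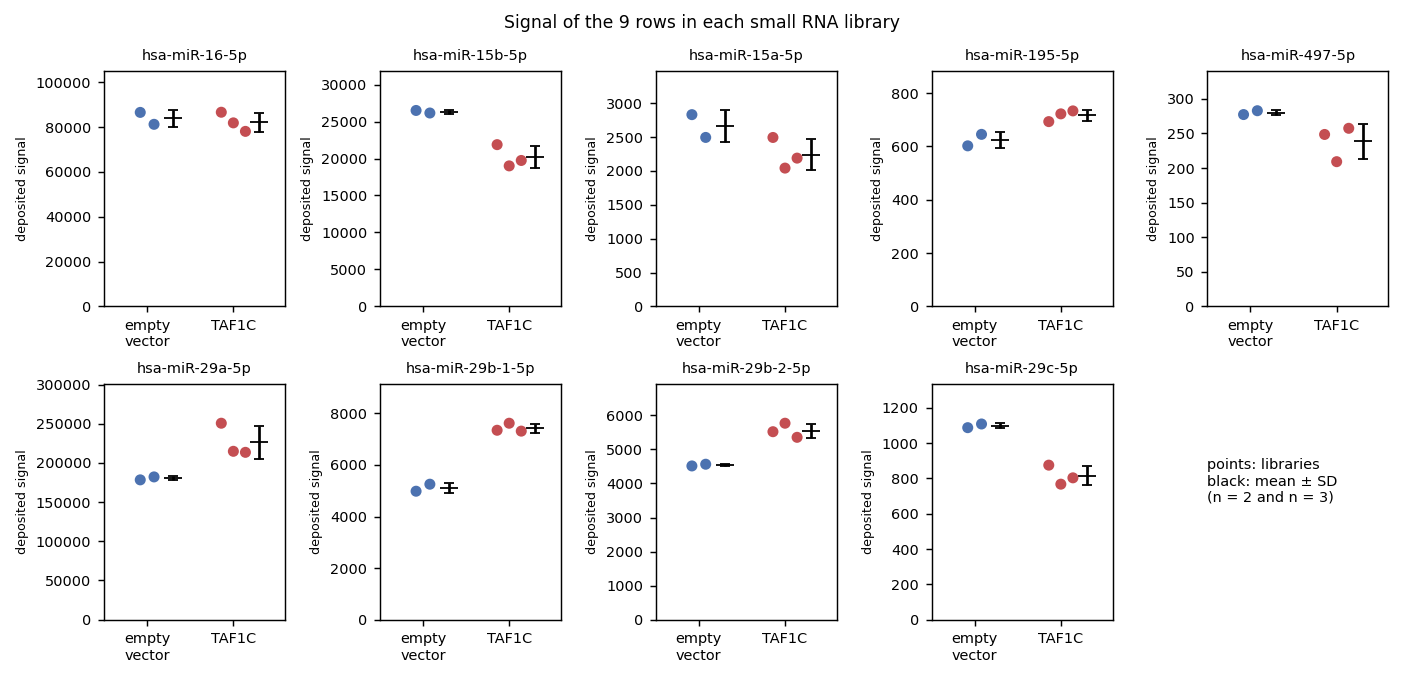
Deposited signal (y axes, from 0, author-scaled reads) of each of the 9 rows in the 2 empty vector libraries (blue) and the 3 TAF1C-labelled libraries (red), with the mean and SD of each group in black. The 3 miR-29 rows miR-29a-5p, miR-29b-1-5p and miR-29b-2-5p sit higher in all TAF1C libraries, miR-15b-5p and miR-29c-5p sit lower in all of them, and miR-16-5p overlaps.

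In the miR-15/16 family, the most abundant row did not pass the test. The signal of miR-16-5p was 86597 and 81272 with the empty vector against 86667, 81919 and 78125 in the TAF1C-labelled libraries. These values overlap, and the log2 fold change was -0.03 ± 0.07 SE (limma adjusted p = 0.756, 95% interval of the change -0.19 to 0.13). It ranked 35 of 612 by mean signal.

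The row of miR-15b-5p, cut from the hairpin next to MIR16-2, was lower in every TAF1C library. Its signal was 26502 and 26156 with the empty vector against 21878, 19004 and 19737 with TAF1C. The empty vector libraries lay close together and well above the others, and the mean fell by 23.3%. The log2 fold change was -0.38 ± 0.08 SE (limma adjusted p = 0.00372), and it kept its call under all 13 settings tried.

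The other 3 rows of the family were smaller and did not pass. For miR-15a-5p, cut from the hairpin next to MIR16-1, the signal was 2830 and 2494 with the empty vector against 2494, 2041 and 2189 with TAF1C. The lower empty vector library and the highest TAF1C library differed by less than 1 unit, and the log2 fold change was -0.25 ± 0.11 SE (limma adjusted p = 0.0894, 95% interval -0.49 to -0.01). Without TAF1C replicate 1 the row passed, at an adjusted p of 0.000247 in limma, but not without replicate 2 or 3 (0.220 and 0.195). Without empty vector replicate 1 or 2 its log2 fold change was -0.16 and -0.34. Leaving out TAF1C replicate 1 also took the calls over all miRNAs from 71 higher and 65 lower to 89 and 88. The paired rows from chromosome 17 went opposite ways without passing: miR-195-5p had 602 and 645 against 693, 722 and 733 (log2 fold change 0.20 ± 0.10 SE, limma adjusted p = 0.124), and miR-497-5p had 277 and 283 against 249, 209 and 257 (-0.24 ± 0.13 SE, limma adjusted p = 0.179). Without TAF1C replicate 1, miR-195-5p passed with an adjusted p of 0.0483 in limma, but not without replicate 2 or 3 (0.209 and 0.268).

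Another miRNA of the tables has the seed AGCAGCA and lies outside the rule's names. For miR-424-5p the signal was 5193 and 5122 with the empty vector against 4549, 4392 and 4273 in the TAF1C-labelled libraries. All 3 were lower, with a log2 fold change of -0.23 ± 0.07 SE (limma adjusted p = 0.0341). It was no longer past the threshold without empty vector replicate 1 (adjusted p = 0.204), empty vector replicate 2 (0.163), TAF1C replicate 2 (0.0692) or TAF1C replicate 3 (0.138), or with the replicate number as a block (0.101), all by limma.

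The miR-29 family was led by miR-29a-5p, which ranked 24 of 612. Its signal was 178374 and 182133 with the empty vector against 250627, 214800 and 213488 in the TAF1C-labelled libraries. All TAF1C libraries were above both controls, by 25.5% in the mean, with TAF1C replicate 1 the highest. The log2 fold change was 0.32 ± 0.08 SE (limma adjusted p = 0.0104, 95% interval 0.14 to 0.51), and without empty vector replicate 1 the adjusted p was 0.0657.

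The row of miR-29b-1-5p, cut from the same transcript as miR-29a, rose most of the 9. It stood at 4981 and 5253 with the empty vector against 7344, 7617 and 7310 in the TAF1C-labelled libraries. The groups were far apart against their spread, with the mean 45.1% higher. The log2 fold change was 0.54 ± 0.07 SE (limma adjusted p = 0.000364), and the call held under all 13 settings.

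The hairpins on chromosome 1 gave rows that went opposite ways. For miR-29b-2-5p the signal was 4515 and 4565 with the empty vector against 5520, 5769 and 5355 with TAF1C (log2 fold change 0.29 ± 0.07 SE, limma adjusted p = 0.0123). Its neighbour miR-29c-5p had 1087 and 1108 with the empty vector against 875, 767 and 803 with TAF1C (-0.43 ± 0.10 SE, limma adjusted p = 0.00646). The groups did not overlap in either row, and the mean of miR-29c-5p fell by 25.7%. Neither call held with 1 control: without empty vector replicate 1 the limma adjusted p was 0.105 for miR-29b-2-5p and 0.0572 for miR-29c-5p, and without empty vector replicate 2 it was 0.0854 and 0.0664.

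The order of the rows by mean signal was miR-29a-5p, miR-16-5p, miR-15b-5p, miR-29b-1-5p, miR-29b-2-5p, miR-15a-5p, miR-29c-5p, miR-195-5p and miR-497-5p. The order was the same within each of the 5 libraries. Across libraries the ranges of miR-29b-1-5p and miR-29b-2-5p overlapped. Signal is not divided by length, but the mature RNAs are all 21 to 24 bases long.

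The scaling of the libraries set how many of these calls stood. With each library scaled to its own total, the median log2 fold change of all 338 miRNAs moved from 0.02 to -0.19, and the calls went from 71 higher and 65 lower (52.2% of calls higher) to 39 and 129 (23.2%), which are 11.5% and 38.2% of the miRNAs tested. Relative to that shift the miR-29 rows kept their order, but miR-29a-5p (0.08, limma adjusted p = 0.478) and miR-29b-2-5p (0.04, adjusted p = 0.674) no longer passed, while miR-29b-1-5p did (0.29, adjusted p = 0.0106). In the same scaling miR-16-5p (-0.27, limma adjusted p = 0.0128), miR-15a-5p (-0.49, 0.00413) and miR-497-5p (-0.45, 0.0204) passed as lower, and miR-195-5p changed sign to -0.04 (0.779). With quantile normalization, miR-29a-5p (0.03, limma adjusted p = 0.823) and miR-29c-5p (-0.16, 0.287) lost their calls and miR-195-5p passed (0.37).

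**Figure D2:**
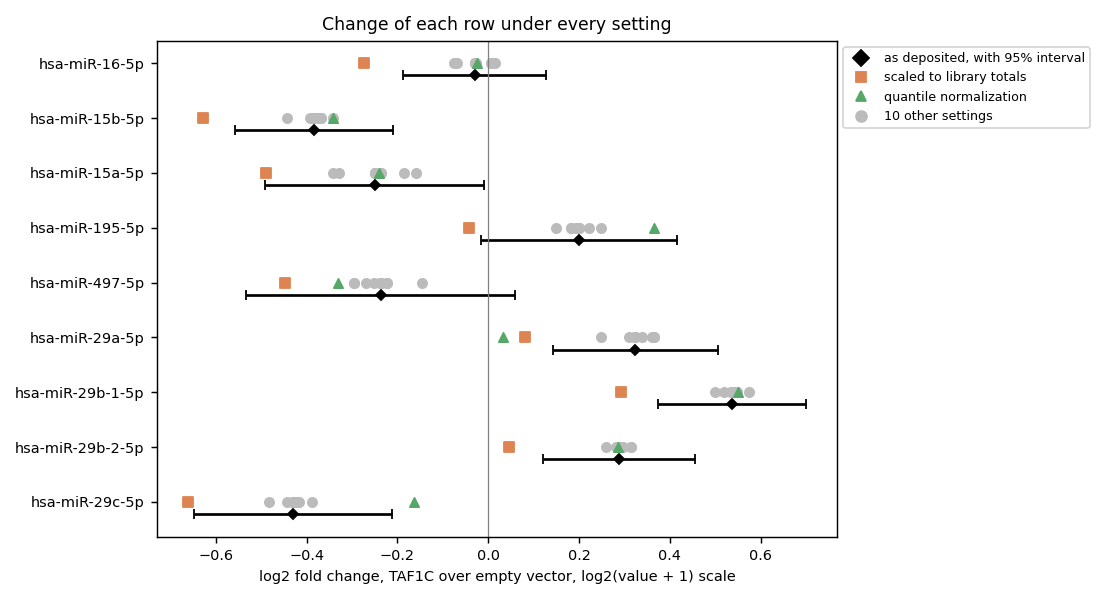
Log2 fold change (x axis, TAF1C-labelled libraries over empty vector) of each row as deposited with its 95% interval (black), scaled to library totals (orange squares), after quantile normalization (green triangles) and under 10 other settings (grey). Scaling to totals moves every row to the left, and miR-15b-5p and miR-29b-1-5p are called under all 13 settings.

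Ratios within a library do not change when the library is scaled by 1 factor. The pairs were chosen by hand. Some set a row called higher against a row called lower, so their separation restates those calls. The ratio of miR-29a-5p to miR-29c-5p was 164 in both controls and 286, 280 and 266 in the TAF1C-labelled libraries. All TAF1C values were above both controls, 1.69 times higher in the mean. For the neighbours on chromosome 1, miR-29b-2-5p over miR-29c-5p, the ratio was 4.15 and 4.12 against 6.31, 7.52 and 6.67. The ratio of the miR-29b rows, 29b-1 over 29b-2, was 1.10 and 1.15 against 1.33, 1.32 and 1.37.

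In the miR-15/16 family miR-16-5p was 3.27 and 3.11 times miR-15b-5p with the empty vector against 3.96, 4.31 and 3.96 times with TAF1C. It was 30.6 and 32.6 times miR-15a-5p with the empty vector against 34.8, 40.1 and 35.7 times with TAF1C. The miR-16 row thus took a larger part of the summed signal of the 5 miR-15/16 rows, 73.3% and 74.1% in the controls and 77.3% to 78.8% in the TAF1C-labelled libraries. The sum leaves out miR-424-5p, which has the same seed. On chromosome 17, miR-195-5p over miR-497-5p was 2.17 and 2.28 against 2.79, 3.45 and 2.85. Across families, miR-29a-5p over miR-16-5p was 2.06 and 2.24 against 2.89, 2.62 and 2.73. For each of these ratios the groups did not overlap, and the exact two-sided permutation p, taken as 2 times the smaller tail, was 0.2. That is the smallest value this form of the test can give with 2 against 3 libraries. Every ratio without overlap gets it, so the p adds nothing to the lack of overlap. The share of all pairs of rows that do not overlap was not computed, and for single miRNAs tested it was 63.3%.

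**Figure D3:**
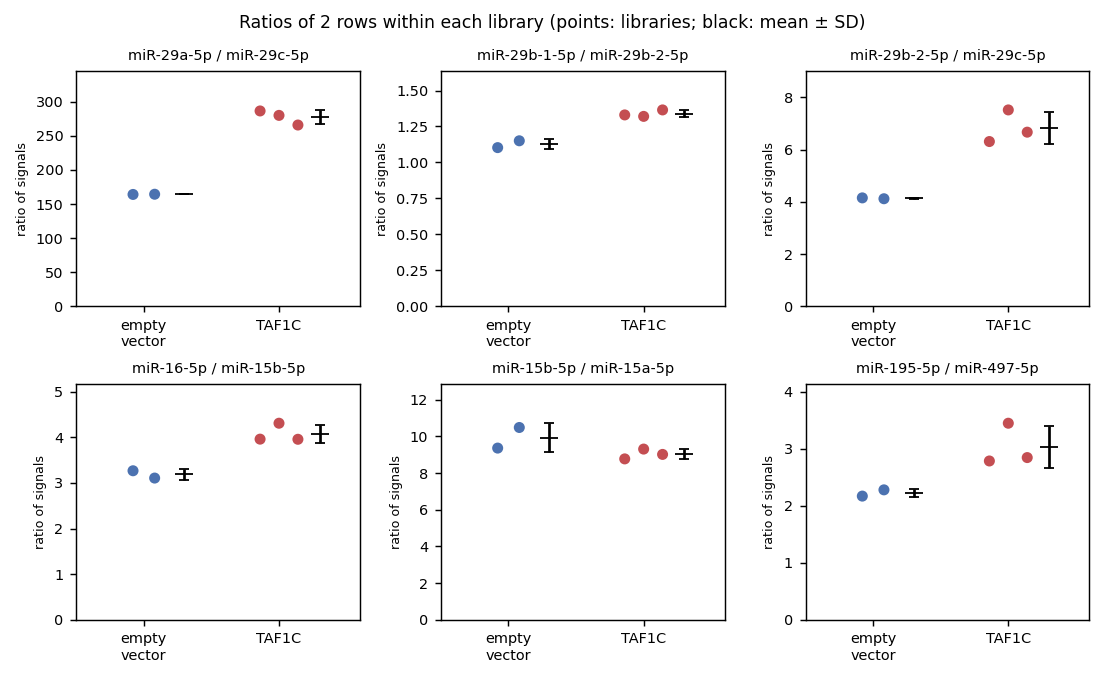
Ratio of the signals of 2 rows within each library (y axes, from 0, no unit), with empty vector libraries in blue, TAF1C-labelled libraries in red and group mean and SD in black. Of the 6 ratios 5 are higher in every TAF1C library, such as miR-29a-5p over miR-29c-5p at 164 against 266 to 286, and miR-15b-5p over miR-15a-5p is lower.

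The rows whose pattern was most like the leading members were found by Pearson correlation of log2(signal + 1) over the 5 libraries, which share the group difference and the scaling. For miR-16-5p these were miR-181a-5p (r = 0.951), miR-548a-3p (0.939) and miR-548a-5p (0.927). For miR-29a-5p they were miR-200a-5p (r = 0.998), miR-6732-5p (0.982) and miR-483-5p (0.981). The signal of miR-200a-5p was 124 and 123 with the empty vector against 693, 312 and 301 with TAF1C, highest in TAF1C replicate 1 as miR-29a-5p was. With 5 libraries these are descriptions only.

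The long RNA libraries show the transcripts at the hairpin pairs. Over 18402 genes tested with edgeR (quasi-likelihood, TMM, Benjamini-Hochberg), 38.5% were called, 15.9% higher and 22.6% lower in the TAF1C-labelled libraries, and the groups did not overlap for 64.2%. Of 9 host and neighbour transcripts tested, 2 were higher, 3 were lower and 6 did not overlap. For chromosome 7, a row with the symbol MIR29A, which the tables class as a lincRNA (ENSG00000226380) and not as the hairpin, had 7.37 and 10.3 CPM with the empty vector against 23.1, 25.2 and 23.8 CPM with TAF1C. It was 2.71 times higher in the mean with no overlap (1.44 ± 0.20 SE on the log2 scale, edgeR adjusted p = 0.00449). It was not on the list of host genes and was picked with its values known. LINC-PINT, the noncoding gene beside MIR29B1, had 12.1 and 9.80 CPM against 17.1, 16.8 and 18.0 CPM (0.66 ± 0.18 SE, edgeR adjusted p = 0.0342). It did not pass without TAF1C replicate 1, 2 or 3 (edgeR adjusted p = 0.137, 0.118 and 0.153) or with library totals (0.172).

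On chromosome 1, C1orf132 (ENSG00000203709), the gene that spans MIR29B2 and MIR29C, had 48.6 and 13.0 CPM with the empty vector against 13.8, 14.1 and 12.9 CPM with TAF1C. Only empty vector replicate 1 stood apart, and the groups overlapped (log2 fold change -1.18 ± 0.51 SE, edgeR adjusted p = 0.116). Without that library the change was 0.00, and without empty vector replicate 2 it was -1.87. The miR-29c-5p row did not share that split, at 1087 and 1108 in the same 2 isolates.

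On chromosome 13, 3 of 4 transcripts were lower in the TAF1C-labelled libraries. DLEU2 (ENSG00000231607), which spans MIR15A and MIR16-1, had 35.2 and 30.3 CPM with the empty vector against 19.1, 21.1 and 19.6 CPM with TAF1C. The 2 groups were apart (-0.72 ± 0.14 SE on the log2 scale, edgeR adjusted p = 0.0123). DLEU1, a noncoding gene beside it, had 19.7 and 10.7 CPM against 7.78, 6.94 and 7.79 CPM (-1.02 ± 0.30 SE, edgeR adjusted p = 0.0416). TRIM13, a ubiquitin ligase gene, had 71.4 and 42.9 CPM against 30.2, 30.2 and 29.6 CPM (-0.93 ± 0.22 SE, edgeR adjusted p = 0.0223). KCNRG, which encodes a regulator of potassium channels, had 5.27 and 1.87 CPM against 1.67, 1.02 and 1.87 CPM and did not pass (-1.23 ± 0.53 SE, edgeR adjusted p = 0.118). Without empty vector replicate 1 KCNRG stood at -0.36, and without replicate 2 at -1.83.

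The bounds of the other 3 genes overlap those of DLEU2, and no source used here says that reads were counted by strand, so reads of DLEU2 and of DLEU1, TRIM13 or KCNRG cannot be told apart there. Without TAF1C replicate 1, 2 or 3 the edgeR adjusted p was 0.0779, 0.0553 and 0.0760 for DLEU2, 0.129, 0.149 and 0.131 for DLEU1, and 0.0882, 0.0937 and 0.0917 for TRIM13. Without empty vector replicate 1 the log2 fold changes of DLEU1 and TRIM13 shrank to -0.58 each. The mature miR-15a-5p lay lower by 0.25 on the log2 scale without passing, and miR-16-5p, which MIR16-1 shares with MIR16-2, by 0.03.

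On chromosome 3, SMC4, a condensin subunit whose gene holds MIR15B and MIR16-2, had 274 and 355 CPM with the empty vector against 386, 423 and 390 CPM with TAF1C. It lay higher in all TAF1C libraries without passing (0.34 ± 0.16 SE, edgeR adjusted p = 0.139), while miR-15b-5p was lower. Without empty vector replicate 1 the change of SMC4 was 0.10, and without replicate 2 it was 0.51. With 1 control left the spread comes from the TAF1C libraries alone, so only the change is given. IFT80, a ciliary transport gene next to SMC4, had 27.6 and 19.1 CPM against 17.9, 21.5 and 16.9 CPM. It did not pass (-0.32 ± 0.22 SE, edgeR adjusted p = 0.291). Leaving out the first control brought the IFT80 change to -0.09, and leaving out the second brought it to -0.59. On chromosome 17, MIR497HG was at 0.141 to 0.737 CPM and was not tested. Long RNA rows named MIR15B, MIR16-1 and MIR16-2 held at most 7 counts in any library.

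**Figure D4:**
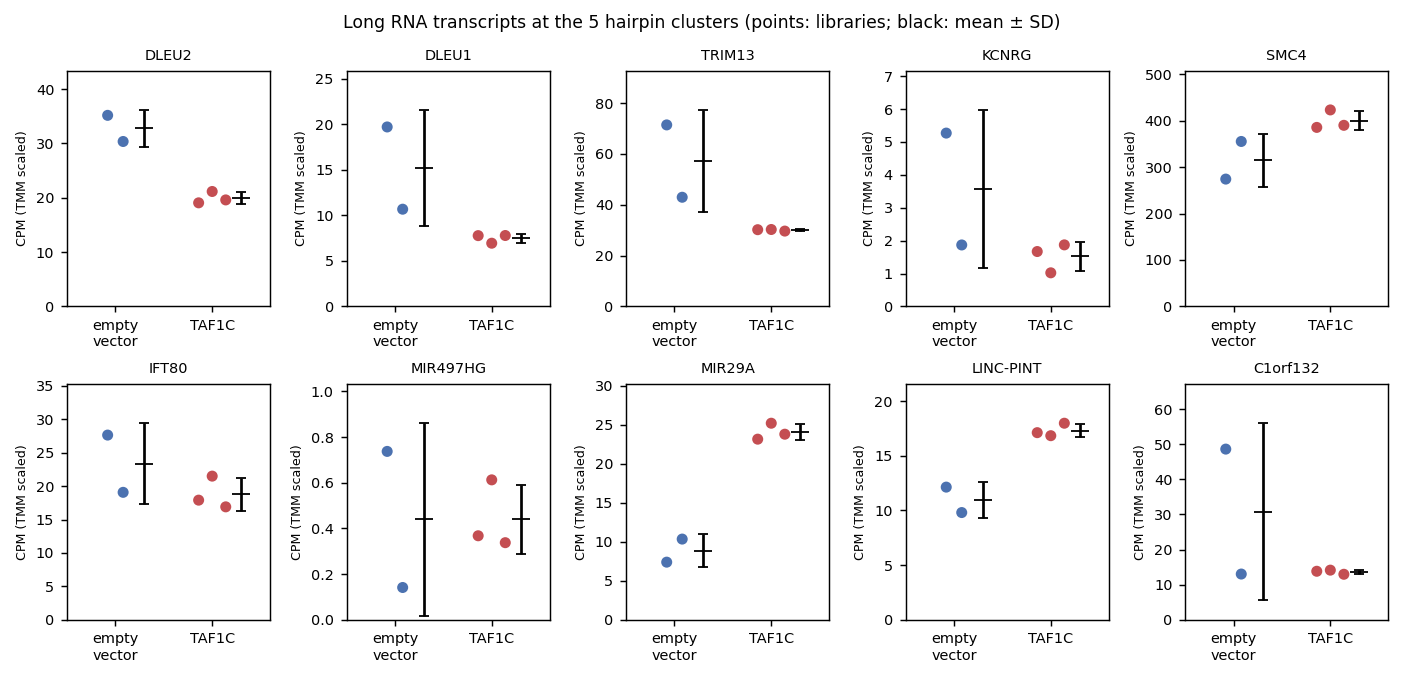
TMM-scaled CPM (y axes, from 0) of the transcripts at the hairpin pairs in the 2 empty vector libraries (blue) and the 3 TAF1C-labelled libraries (red), with group mean and SD in black. The lincRNA row named MIR29A is at 7.37 and 10.3 against 23.1 to 25.2, DLEU2 is at 35.2 and 30.3 against 19.1 to 21.1, and C1orf132 is high in empty vector replicate 1 alone.

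The window around a start of DLEU2 is shown for a motif that it holds, and it was picked with the values of DLEU2 and MYC known. MYC, picked with its values known, had 59.8 and 49.2 CPM with the empty vector against 243, 224 and 240 CPM with TAF1C (log2 fold change 2.11 ± 0.14 SE, edgeR adjusted p = 0.00050). The RefSeq window, chr13:50125492-50125791 on the minus strand of GRCh38.p14, holds the motif CACGTG, an E-box that reads the same on both strands, and capitals mark it at base 21.
DLEU2: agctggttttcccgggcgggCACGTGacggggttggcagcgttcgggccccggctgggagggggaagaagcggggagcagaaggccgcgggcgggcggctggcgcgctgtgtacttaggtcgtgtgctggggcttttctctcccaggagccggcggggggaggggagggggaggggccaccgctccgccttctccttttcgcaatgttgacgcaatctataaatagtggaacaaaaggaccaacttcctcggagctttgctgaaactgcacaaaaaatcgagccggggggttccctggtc
The motif stood in 2 of 10 windows of the host genes, this and another of LINC-PINT, and in 7.26% of all 35116 windows of that length. The other window of DLEU2 held no match. LINC-PINT was higher with TAF1C, where DLEU2 was lower. Whether MYC has a part in either change was not tested. A match says nothing of binding in these cells, and no binding was measured.

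Genes known as targets of the miR-15/16 family moved both ways. Of 51 listed, 48 were tested, and 14 were higher, 14 lower and 20 did not pass, beside 15.9% higher and 22.6% lower over all genes. The median log2 fold change was 0.12 against -0.10 over all genes. The count of higher genes ran from 8 without any 1 TAF1C library to 21 without empty vector replicate 2, and that of lower genes from 10 to 20. Among 9 cyclins, their kinases and checkpoint kinases, grouped after the values were seen, 5 were higher and 3 lower. Among 6 genes of the TGF-beta, activin and YAP pathways, grouped in the same way, 3 were higher and 2 lower.

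Cyclin D1 (CCND1), which starts the cell cycle with CDK4 and CDK6, had 23.0 and 25.9 CPM with the empty vector against 114, 124 and 118 CPM with TAF1C. It was 4.85 times higher in the mean (log2 fold change 2.28 ± 0.12 SE, edgeR adjusted p = 0.000284). CDK6, its kinase, had 67.2 and 68.9 CPM against 259, 282 and 257 CPM (1.97 ± 0.12 SE, edgeR adjusted p = 0.00040). Also higher by the largest changes were the growth factor FGF2 (1.65), the TGF-beta mediator SMAD3 (1.61) and the small GTPase ARL2 (1.22).

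BCL2, which blocks apoptosis and is the target this family is best known for, was lower. It had 15.6 and 26.9 CPM with the empty vector against 3.28, 2.33 and 3.37 CPM in the TAF1C-labelled libraries (log2 fold change -2.82 ± 0.32 SE, edgeR adjusted p = 0.00226). Cyclin D2 (CCND2) had 28.97 and 68.9 CPM against 1.41, 1.14 and 0.797 CPM (-5.45 ± 0.46 SE, edgeR adjusted p = 0.000904). The adhesion molecule CADM1 (-6.65), the Wnt feedback gene AXIN2 (-3.44) and the transcription factor MYB (-3.26) were lower as well. Cyclins D1 and D2, both targets of the same seed, moved in opposite directions. The photoreceptor and neuronal genes given above fell in the same libraries as CCND2, CADM1 and BCL2, and their part in these changes was not tested.

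Targets of the miR-29 family, known from its 3p seed, also split. Of 79 listed, 76 were tested, and 22 were higher, 24 lower and 30 did not pass, beside the same 15.9% and 22.6% over all genes. The median log2 fold change was -0.13 against -0.10 over all genes. Without 1 TAF1C library at a time 14 were higher and 15 or 16 lower, and without empty vector replicate 1 or 2 the counts were 32 higher with 25 or 34 lower. The 2 lists share 8 genes, CDK6, CCND2 and BCL2 among them.

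Of 14 collagen chains, grouped after the values were seen, 5 were higher, 2 lower and 7 did not pass, beside 15.9% higher and 22.6% lower over all genes. COL5A1, a fibrillar chain, had 93.0 and 58.5 CPM with the empty vector against 7.44, 6.18 and 6.47 CPM with TAF1C (log2 fold change -3.50 ± 0.23 SE, edgeR adjusted p = 0.000481). COL7A1, the chain of anchoring fibrils, had 85.5 and 63.6 CPM against 240, 226 and 253 CPM (1.68 ± 0.17 SE, edgeR adjusted p = 0.00153). COL4A2, of basement membranes, was higher too, at 176 and 216 CPM against 495, 463 and 477 CPM (1.29 ± 0.15 SE, edgeR adjusted p = 0.00238).

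The fibrillar chain genes COL1A1 and COL3A1 were low and did not pass, at 17.5 and 4.12 CPM against 8.87 to 16.5 CPM, and at 11.9 and 0.881 CPM against 0.828 to 1.61 CPM. Without empty vector replicate 1 the log2 fold change of COL1A1 was 1.58, and without replicate 2 it was -0.47. For COL3A1 it was 0.40 without replicate 1 and -3.32 without replicate 2. Of 11 other matrix proteins and cross-linking enzymes, also grouped after the values were seen, 6 were higher and 3 lower, where 15.9% and 22.6% of all genes were. Lysyl oxidase (LOX), which cross-links collagen, had 61.0 and 71.6 CPM against 398, 400 and 382 CPM (2.57 ± 0.14 SE, edgeR adjusted p = 0.00031). Its relatives on the list went both ways, with LOXL2 higher (1.28) and LOXL4 lower (-3.31). LAMC1, a laminin chain, stood at 188 and 199 CPM against 502.2 to 514.8 CPM, and nidogen (NID1) at 46.0 and 40.2 CPM against 1.23 to 2.01 CPM.

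Of 7 genes for enzymes that set or remove DNA methylation, grouped with their values known, 5 were lower, 0 were higher and 2 (DNMT1 and TDG) did not pass, where 22.6% of all genes were lower. DNMT3A, which writes new methyl marks, had 157.2 and 157.6 CPM with the empty vector against 70.0, 74.4 and 73.1 CPM in the TAF1C-labelled libraries (log2 fold change -1.12 ± 0.10 SE, edgeR adjusted p = 0.00102). TET1, which oxidises methyl marks, had 52.6 and 42.4 CPM against 9.81 to 12.2 CPM (-2.11 ± 0.17 SE, edgeR adjusted p = 0.000779). TET3 changed by -1.61, TET2 by -0.84 and DNMT3B by -0.90. The DNMT3B call was lost without TAF1C replicate 1, 2 or 3 (edgeR adjusted p = 0.0563, 0.0838 and 0.0971) and with no filter on low counts (0.0846). The collagens COL1A1, COL3A1, COL4A2 and COL7A1, LAMC1, LOXL2, LOXL4 and the DNMT and TET genes were picked with their values known.

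The largest other changes of the miR-29 list were the proteases ADAMTS9 (3.25) and ADAM12 (2.23) and the Wnt inhibitor DKK1 (2.06) among higher genes, and MYCN (-10.43) and the Wnt antagonist SFRP2 (-6.46) among lower ones, as log2 fold changes. MYCN had 50.4 and 715 CPM in the empty vector libraries, far apart from each other, and 0.204 to 0.311 CPM with TAF1C (edgeR adjusted p = 0.00349). SFRP2 had 2.14 and 33.3 CPM against 0.0566 to 0.292 CPM. ADAM12 lost its call without TAF1C replicate 1, 2 or 3 (edgeR adjusted p = 0.0935, 0.115 and 0.100) and with library totals (0.0678), and without those libraries so did SFRP2 (0.0552, 0.0666 and 0.0592). Without empty vector replicate 1 the log2 fold change of ADAM12 was 3.58, and without replicate 2 it was 1.497.

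**Figure D5:**
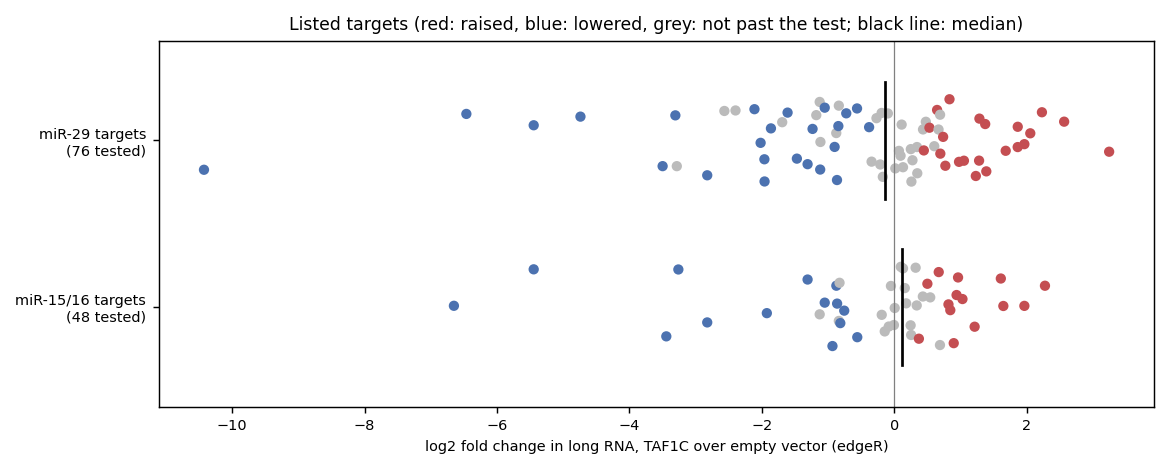
Log2 fold change in long RNA (x axis, TAF1C-labelled libraries over empty vector, edgeR) of the tested genes on the target lists of both families, with higher genes in red, lower genes in blue, genes not past the test in grey and the list median as a black line. Both lists spread to both sides, with medians of 0.12 over 48 genes and -0.13 over 76.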

How the data were processed

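Small RNA had been sequenced in 5 libraries and long RNA in 5. The isolation kit was mirVana and the library kits were NEBNext, per the labels' protocols. The submitters' processing notes name hg19 as the build and list DESeq2, Cufflinks 2.2.1, HISAT2, Bowtie2 2.2.4 and Trimmomatic 0.36, whose roles and settings are not given in the sources used here. The deposited miRNA tables hold a signal that the authors had scaled by 1 factor per library: values are whole multiples of a step of 0.659 to 1.27, tested up to 3000 steps at a tolerance of 0.05 step, and reads were estimated as signal over step, on the assumption that a step is 1 read. The deposited long RNA tables hold the authors' raw counts per Ensembl gene, 22809601 to 37533366 a library. The deposited piRNA tables were not used.

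Signal plus 1 was tested on the log2 scale by limma 3.58.1 (trended prior, R 4.3.3), for the 338 miRNAs above 0 in all libraries and at least 10 in at least 2, which leaves out 274 rows with a 0 in any library. Counts were summed by symbol and tested with edgeR 4.0.16 (quasi-likelihood, TMM) for the 18402 genes that reached 1 CPM in 2 or more libraries. The SE given with edgeR was worked back from the test, as the size of the log2 fold change over the square root of the F statistic. Both tests are two-sided with Benjamini-Hochberg adjustment at 0.05. Data for 338 miRNAs and 18402 genes were simulated with the same noise in every library. There limma recovered 27 of 30 miRNAs changed by 0.5 on the log2 scale, with 2 false calls among the miRNAs left unchanged. In the same way edgeR recovered 79 of 100 genes changed by 1, with 4 false calls among the genes left unchanged. In the real long RNA data the SD of log2 differences was 0.87 between the controls and 0.20 to 0.23 between TAF1C libraries. In small RNA it was 0.49 and 0.47 for pairs with TAF1C replicate 1 and 0.26 between TAF1C replicates 2 and 3. These counts therefore do not give the error rates of these libraries. DESeq2 1.42.0 served as an alternative for the counts, and tables and figures came from Python 3.11.15. From each target list the text names up to 5 higher and 5 lower genes past the test, not overlapping, of at least 5 CPM in the higher group, by size of change; all hosts, members and seed relatives; and the 3 nearest miRNAs by correlation. The members, lists and tests were chosen with earlier results of these data known. Positions are GRCh38.p14 from RefSeq, and no hg19 coordinate is printed.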

Additional observations from a re-analysis of the deposited data

How the results depend on the processing

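Over the 12 alternatives run for each of the 9 rows, miR-15b-5p and miR-29b-1-5p kept direction and call. The log2 fold change of miR-15b-5p ran from -0.63 to -0.34 and that of miR-29b-1-5p from 0.29 to 0.58. The calls of miR-29a-5p, miR-29b-2-5p and miR-29c-5p held in 9, 10 and 10 of 13 settings, counting the reported fit, and besides the losses given above miR-29a-5p lost its call with no filter on low values (limma adjusted p = 0.0765). None of the called rows changed sign, and COL1A1, which did not pass (0.26), was at 1.58 without empty vector replicate 1 and at -0.47 without replicate 2. With library totals 39 miRNAs were called higher and 129 lower, against 71 and 65. Leaving out 1 library at a time gave 50 to 89 higher and 42 to 88 lower miRNAs, and 1058 to 5966 higher and 1960 to 5665 lower long RNA genes, against 2922 and 4158. The high gene counts came without empty vector replicate 1 (4687 and 4759) or 2 (5966 and 5665), where the lone control is assumed to vary like the TAF1C libraries, and the low ones without a TAF1C library. With no filter 1817 genes were higher. In that setting DLEU2 (edgeR adjusted p = 0.103), DLEU1 (0.0748) and LINC-PINT (0.0767) lost their calls. TRIM13 (edgeR adjusted p = 0.0307) and the lincRNA row named MIR29A (0.00323) kept theirs. Library totals moved the median change of all genes from -0.10 to -0.32. The causes of these moves were not tested.

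Replicate numbers are shared by 2 pairs in each assay, and deviations of same-numbered libraries correlated at 0.04 and 0.00 in small RNA and at 0.03 and 0.13 in long RNA, so the numbers were taken as names. With the replicate number as a block, 64 miRNAs were higher and 59 lower, and 1425 genes were higher and 2662 lower. The 5 called rows stayed called with the block (limma adjusted p = 0.0203 for miR-15b-5p, 0.0201 for miR-29a-5p, 0.00634 for miR-29b-1-5p, 0.0330 for miR-29b-2-5p and 0.0367 for miR-29c-5p), while DLEU2 (edgeR adjusted p = 0.127), DLEU1 (0.147), LINC-PINT (0.264) and DNMT3B (0.143) did not, nor did miR-424-5p (limma adjusted p = 0.101). Count tests of the miRNA rows with edgeR and DESeq2 were planned for the case that reads could be recovered and were not run: the smallest value above 0 was 3 or 4 steps, so the values could not be accepted as whole reads. Of the 9 rows miR-497-5p had the lowest signal.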

Other observations

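The miR-29b-1-5p row exceeded the miR-29b-2-5p row by a signal of 466 and 688 with the empty vector and by 1824, 1848 and 1955 in the TAF1C-labelled libraries. The row miR-24-2-5p was listed at 0 in both empty vector libraries and at 293564, 317114 and 318511 in the TAF1C-labelled libraries, while miR-24-1-5p, from a hairpin with the same 3p arm, was at 311224 and 320603 against 289882, 312653 and 314432. None of the 9 rows had a 0 in any library.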
